A study of Mus musculus with 2 samples.

Results

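Wide DNase I footprints inside peaks of open chromatin were examined in mouse spleen. In DNase-seq, nuclei are treated with the nuclease DNase I, which cuts accessible DNA, and the cut ends are sequenced. A footprint is a short stretch inside such a region that is cut less than its surroundings. Both libraries came from spleen tissue of female B6CASTF1/J mice, hybrids of the C57BL/6 and CAST backgrounds, at 36 days of age, and the labels name no treatment. They form 1 group of 2 biological replicates with 1 library each, so no comparison between conditions exists. The labels describe differently numbered females but attach the same donor entry to both libraries, so the spread between them may in part be technical.

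The footprints were chosen by their deposited position and width: they are at least 20 bases wide and lie inside a peak of the shorter deposited peak list of the same library. Replicate 1 had 100248 footprints inside its 42454 peaks, of which 23638 (23.6%) were that wide. Replicate 2 had 160380 inside its 60683 peaks, of which 37382 (23.3%) were. The 20135 footprints of replicate 1 that overlapped a wide footprint of replicate 2 by at least 50% of the shorter are the members described here. All footprints, inside and outside peaks, numbered 133725 and 246700. At the threshold the widths ran on without a gap, with 2205 and 3255 footprints of 19 bases and 2199 and 3115 of 20 bases in replicates 1 and 2. Sequencing depth was unknown, as the files give no read counts. Ranges in parentheses after a share are 95% Wilson intervals, which cover counting error only and take no account of neighbouring footprints or of differences between animals.

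A protein bound to DNA shields its site from the nuclease, so footprints report occupied sites without naming the occupant. CTCF is a protein with many zinc fingers that binds a long, directional site, stops the loop-extruding cohesin ring and thereby shapes chromosome folding. Promoters of housekeeping genes are commonly occupied by SP and KLF proteins, NRF1, NFY, CREB/ATF and ETS proteins, which read short GC-rich or defined words near the start site. B and T cells, red cell precursors and macrophages of the spleen are specified by factors such as EBF1, PU.1, RUNX and GATA proteins. In bulk tissue, fewer cells with an occupied site and weaker protection in each cell cannot be told apart.

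Of the members, 11073 lay within 1 kb of a protein-coding start site and 9062 lay farther away, a share of 55.0% at promoters (54.3 to 55.7). Among all wide footprints of replicate 1 the share was 56.3%, and among those of replicate 2 it was 49.5%, with a mean of 52.9% ± 4.85 (SD, n = 2). Narrower footprints inside peaks that were shared by the same overlap rule numbered 25988, with 51.5% (50.9 to 52.1) at promoters. The 2 sets of wide footprints, at and away from promoters, differed in the sequences they covered, in their peaks and in their widths.

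The sequences below show the kinds of site that the results turn on. Each is the footprint of replicate 1 with 5 bases on either side, read from the mm10 reference (GRCm38.p6) 5′ to 3′ on the strand given. The first set holds members away from promoters with a CTCF core, in capitals, whose edges lay at the most common distances from it. They are 4 of the 6 such members with the strongest peaks, chosen after the values were seen.
Znfx1 upstream, chr2:167072160-167072197, plus strand: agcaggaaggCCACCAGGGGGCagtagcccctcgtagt
Tarbp1 upstream, chr8:126497656-126497693, plus strand: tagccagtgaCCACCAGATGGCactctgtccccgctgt
Fnbp1l upstream, chr3:122638849-122638886, minus strand: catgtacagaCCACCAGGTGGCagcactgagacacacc
Akap13 downstream, chr7:75639709-75639746, plus strand: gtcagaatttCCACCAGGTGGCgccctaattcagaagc

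The second set holds wider CTCF members, chosen in the same way, in which the protected stretch reached farther upstream of the core. The capitals mark the core, here with 1 mismatch, and the upstream word TGCAGT.
Cebpb upstream, chr2:167685297-167685354, plus strand: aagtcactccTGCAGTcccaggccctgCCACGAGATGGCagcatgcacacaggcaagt
Cfap54 downstream, chr10:93070662-93070710, plus strand: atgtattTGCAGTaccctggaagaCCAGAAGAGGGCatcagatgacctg
Plekhb2 downstream, chr1:34867317-34867369, plus strand: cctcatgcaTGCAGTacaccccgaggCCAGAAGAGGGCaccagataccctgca
Slc25a25 upstream, chr2:32487285-32487335, minus strand: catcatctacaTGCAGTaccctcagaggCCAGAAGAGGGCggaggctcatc

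The third set holds members just upstream of start sites, with a listed consensus in capitals: NFY at Cnnm3, NRF1 at Zfp106, SP/KLF with CREB at Serinc3, that pair with ETS at Lrrc8a, and a TATA box at Txnip.
Cnnm3, chr1:36511778-36511855, minus strand: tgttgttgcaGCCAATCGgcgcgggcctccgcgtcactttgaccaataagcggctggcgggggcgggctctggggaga
Zfp106, chr2:120563829-120563860, plus strand: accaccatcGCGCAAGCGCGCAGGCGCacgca
Serinc3, chr2:163645152-163645212, minus strand: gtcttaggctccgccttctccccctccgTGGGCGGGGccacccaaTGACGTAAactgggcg
Lrrc8a, chr2:30237649-30237691, plus strand: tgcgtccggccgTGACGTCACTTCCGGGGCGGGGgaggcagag
Txnip, chr3:96557918-96557950, plus strand: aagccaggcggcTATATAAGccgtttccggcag

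The overlap rule used replicate 2 only to choose members, and what that library held at the other wide footprints of replicate 1 is a description. Of the 23638, 20135 (85.2%) met a wide footprint there, 1975 (8.36%) a narrower one inside a peak, 1337 (5.66%) a footprint outside the listed peaks, 147 a peak without such a footprint and 44 neither. Of the 76610 narrower footprints of replicate 1, 33.9% met a narrower one of replicate 2. From the side of replicate 2, which had more peaks and more footprints, 53.7% (53.2 to 54.2) of its 37382 wide footprints met a wide one of replicate 1. Another 29.2% (28.7 to 29.7) met only a narrower footprint. A longer footprint has more bases with which to meet the rule, and how much of the gap between 85.2% and 33.9% this accounts for was not tested.

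Among members, edges were placed closely but not identically in the 2 libraries. Members were chosen by their width and overlap in both libraries, so the choice itself used the edges. Wide footprints that met only a narrower one, or none, were left out beforehand. The values below therefore describe the chosen pairs and cannot test how well the libraries agree on edges. Both edges agreed within 2 bases in 53.5% (52.6 to 54.5) of members at promoters and in 46.3% (45.3 to 47.3) of those away. Within 5 bases the shares were 77.9% and 74.1%. The footprint was wider in replicate 2 in 63.9% (63.0 to 64.7) and 65.4% (64.4 to 66.4), and wider in replicate 1 in 2484 of 11073 and 1991 of 9062. The median difference was 1 base at promoters and 2 bases away from them. In some cases a footprint of replicate 2 spanned 2 of replicate 1, since the 20135 members met 20058 footprints of replicate 2. An example is the start site of Tfrc, the transferrin receptor that brings iron into red cell precursors, where members of 24 and 21 bases both met a footprint of 49 bases.

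Widths differed between the 2 classes. At promoters the median width was 25 bases in replicate 1 and 28 in replicate 2, and the most frequent widths were 21 and 23 bases, near the threshold. Away from promoters the medians were 28 and 30 bases, and the most frequent widths were 28 and 29 bases. Beyond a dip the counts in replicate 2 rose again, from 116 members of 38 bases to 183 of 41 bases, with 181 of 45 bases. In replicate 1 they only levelled off, with 92 members of 37 bases, 89 of 42 bases and 111 of 43 bases. The widest members reached 72 and 80 bases at promoters and 68 and 75 bases away from them.

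**Figure D1:**
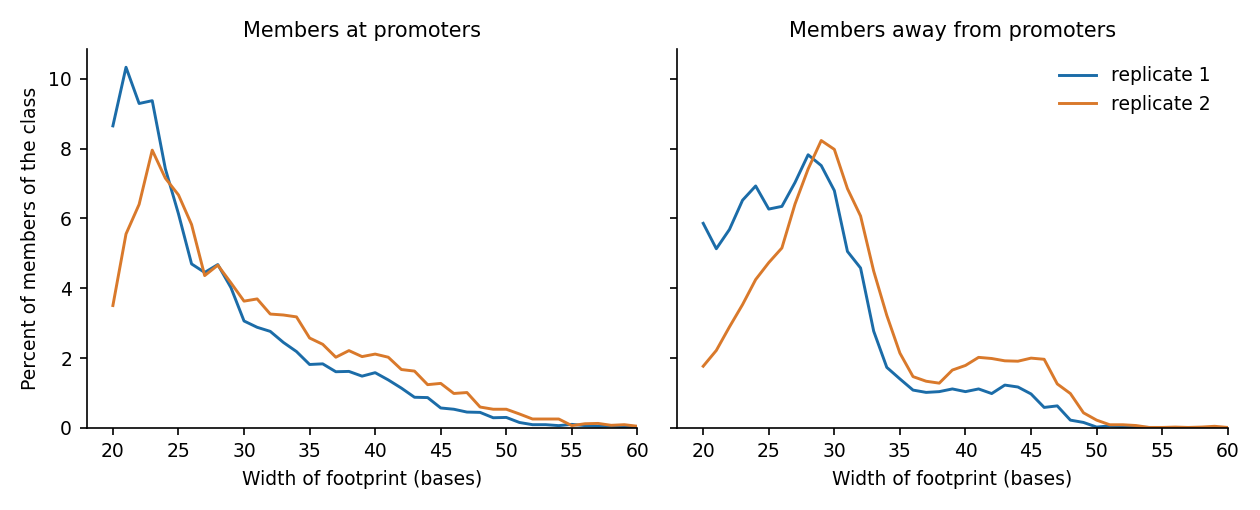
Width of the members in bases (horizontal) against the percent of members of the class (vertical), at promoters (left) and away from them (right), one line per library, drawn up to 60 bases. At promoters the lines fall from 21 and 23 bases onward, and away from promoters they peak at 28 and 29 bases with a low plateau beyond 40 bases in replicate 2.

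Away from promoters the CTCF core was the leading sequence. An exact match to this directional 12-base consensus lay in 2248 of 9062 members, or 24.8% (23.9 to 25.7). Among all wide footprints away from promoters it was 23.3% for replicate 1 and 16.5% for replicate 2, with a mean of 19.9% ± 4.78 (SD, n = 2). The same letters read backwards, which keep the base composition, were found in 0 of these members. With up to 1 mismatch the core lay in 5253 members, 58.0% (56.9 to 59.0), and the backward pattern in 15, 0.166% (0.100 to 0.273). At promoters the exact core lay in 162 of 11073 members, 1.46% (1.26 to 1.70), and the core with up to 1 mismatch in 614, 5.55% (5.13 to 5.99).

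Because wide footprints hold more letters, consensus sequences were also counted in windows of 40 bases around each footprint midpoint. In members away from promoters the exact core lay in 24.8% of member windows and in 1.02% (0.862 to 1.21) of windows around narrower shared footprints. In narrower shared footprints that lay in the same peaks as members the share was 0.108% (0.0461 to 0.253). These footprints are other stretches of peaks already chosen for holding a member. Their share was therefore in part set by the choice and is no stricter comparison. Windows at the midpoints of all peaks away from promoters held it in 9.18% of 25111 peaks in replicate 1 and 5.80% of 40775 in replicate 2. The intervals of members and narrower footprints did not overlap.

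Read from the peaks, the same relation held, where a member anywhere in the peak counted, whether or not it covered the sequence. Among peaks away from promoters with the exact core in their central 40 bases, 1540 of 2306 in replicate 1 held a member, 66.8% (64.8 to 68.7), and 1524 of 2366 in replicate 2, 64.4% (62.5 to 66.3). Over all peaks away from promoters the shares were 33.2% and 20.4%. Peaks with the word of PU.1 (GAGGAAGT), the master factor of macrophages that B cells also use, were at the other end. Of these, 40 of 452 held a member in replicate 1, 8.85% (6.57 to 11.8), and 45 of 877 in replicate 2, 5.13% (3.86 to 6.80). The composite ETS-IRF element EICE, bound in B cells by PU.1 with IRF4 or IRF8, gave 5 of 132 and 10 of 254. The GATA word of red cell factors (AGATAA, then C or G, then A or G) gave 11 of 98 and 13 of 269. The RUNX word (TGTGGTT, then A or T) gave 55 of 303 and 63 of 567, the octamer ATGCAAAT of OCT1 and OCT2 gave 22 of 135 and 24 of 270, and the AP-1 word gave 42 of 222 and 44 of 469. Each of these lay below the share over all peaks in both libraries, with intervals that did not overlap it. The consensus of EBF, the B cell factor, gave 34 of 109 (31.2%, 23.3 to 40.4) and 35 of 205 (17.1%), with intervals that include the share over all peaks.

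The same order appeared in the footprint windows. Away from promoters the PU.1 word lay in 0.320% (0.223 to 0.459) of member windows and in 1.72% (1.51 to 1.96) of narrower ones. RUNX lay in 54 of 9062 member windows against 177 of 12602, GATA in 4 windows of members, 0.0441% (0.0172 to 0.113), against 0.460% (0.356 to 0.594), and EICE in 0.0662% (0.0303 to 0.144) against 0.627% (0.503 to 0.781). For each of these words the intervals of members and all narrower shared footprints did not overlap. They did overlap when the narrower footprints were those in the same peaks as members, where PU.1 lay in 0.540% (0.366 to 0.796), RUNX in 0.756% (0.544 to 1.05), and GATA and EICE each in 0.151% (0.0733 to 0.312). For E2A, a B cell factor, and for MEF2 the intervals stayed apart even there. E2A lay in 1.26% (1.05 to 1.51) of member windows against 2.01% (1.64 to 2.45) in the same peaks. MEF2 lay in 0.0883% (0.0447 to 0.174) against 0.346% (0.213 to 0.561). The shares also moved with the library. Among all wide footprints away from promoters, GATA lay in 0.0388% in replicate 1 and 0.349% in replicate 2, EICE in 0.0872% and 0.217%, PU.1 in 0.310% and 0.535%, and RUNX in 0.630% and 1.07%. EBF went the other way, with 0.761% (0.602 to 0.962) in members against 0.365% (0.274 to 0.487), but its pattern read backwards lay in 56 members beside 65 with the true one. NRF1 and CREB were also more frequent in member windows away from promoters, at 0.806% (0.641 to 1.01) against 0.365% (0.274 to 0.487) and at 0.607% (0.467 to 0.789) against 0.198% (0.134 to 0.293). None of the 9062 members and none of the 12602 narrower windows held the consensus of HNF1, a factor of liver and kidney, with upper Wilson bounds of 0.0424% and 0.0305%. The consensus of HNF4, also a liver factor, was present, in 0.0552% (0.0236 to 0.129) of member windows and 0.0635% (0.0322 to 0.125) of narrower ones.

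**Figure D2:**
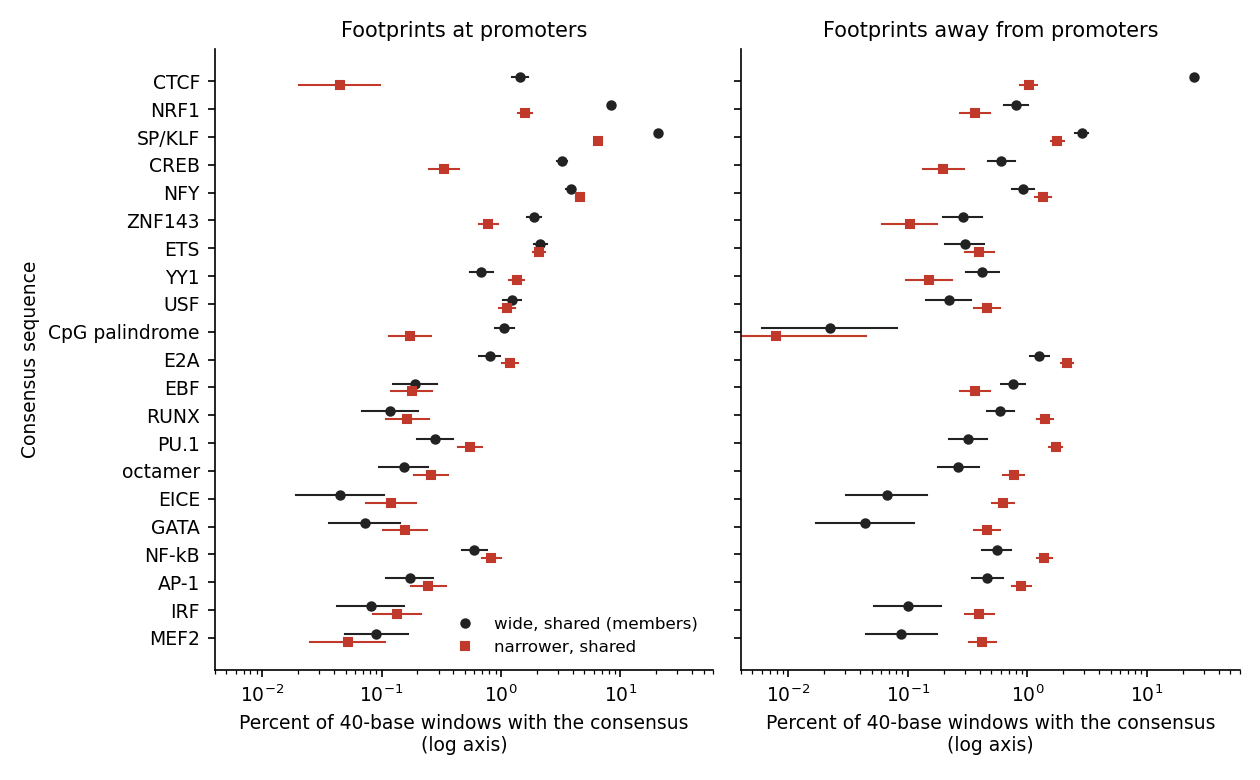
Percent of 40-base windows that hold a consensus (horizontal, log axis) for 21 of the 30 consensus sequences (vertical), at promoters (left) and away from them (right); circles are members, squares narrower shared footprints, and lines 95% Wilson intervals. Away from promoters CTCF stands at 24.8% against 1.02%, while the words of PU.1, GATA, EICE, IRF and RUNX lie farther left in members than in all narrower shared footprints; against narrower footprints in the same peaks, not drawn, their intervals overlap.

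The CTCF core sat at a fixed place in the protected stretch. In the 5205 members away from promoters with 1 such site, the upstream edge most often lay 5 bases before the core, in 29.7% of members in replicate 1 and 26.4% in replicate 2. It lay within 1 base of that place in 66.9% and 59.0%. The downstream edge was less sharp, most often 11 bases after the core in both libraries, in 12.1% and 13.3%. A lesser maximum of the downstream edge lay 7 bases after the core, in 9.11% and 7.05%. The median width was 28 and 30 bases, as in Tarbp1 and Fnbp1l of the first set, where both libraries gave the same 28 bases. By width in replicate 1, the share of members with a core of up to 1 mismatch rose from 36.1% (33.8 to 38.6) at 20 to 22 bases to 70.1% (68.0 to 72.2) at 29 to 31 bases. It was 52.0% (47.5 to 56.4) at 36 to 40 bases and 63.8% (59.5 to 67.9) at 41 to 45 bases.

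A second class of CTCF footprint reached farther upstream. The upstream edge had a further maximum 22 bases before the core, in 168 members in replicate 1 and 258 in replicate 2. With a limit of 15 bases, set after these values were seen, 578 of 5205 members (11.1%) were extended in both libraries, 98 in replicate 1 only, 536 in replicate 2 only and 3993 in neither. Members extended in both had median widths of 42 and 43 bases, against 28 and 29 bases in those extended in neither. At promoters 78 of 608 were extended in both libraries, 12.8% (10.4 to 15.7), with median widths of 43 and 43 bases.

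The extended members held another sequence upstream of the core. The word TGCAGT lay within 25 bases upstream in 154 of 578 extended members (26.6%) and in 132 of 3993 others (3.31%), with its first base at a median of 17 bases before the core, as in the second set of sequences. At exactly that place it stood in 145 of 578 extended members, 25.1% (21.7 to 28.8), and in 49 of 3993, 1.23% (0.930 to 1.62). Base by base, extended members had T at position -17 in 71.3%, G at -16 in 85.3%, C at -15 in 72.8%, A at -14 in 70.8%, T at -12 in 88.1%, C at -10 in 82.7% and C at -9 in 69.7%. In the others the leading base at these positions did not exceed 42.4%. Written as TGCANTNCC and allowing 1 mismatch, this stretch stood at that place in 328 of 578 extended members, 56.7% (52.7 to 60.7), and in 108 of 3993 others, 2.70% (2.25 to 3.26). Members extended in 1 library only lay between, at 29 of 98 in replicate 1 and 160 of 536 in replicate 2. The exact stretch, on either strand, lay in the central 40 bases of 1.77% of all peaks away from promoters in replicate 1 and 1.38% in replicate 2. The word was searched for after the extended members had been picked, so these shares are a description.

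Read from the sequence, 270 members had TGCAGT at that place. Of these, 57.4% (51.4 to 63.2) were extended in replicate 1 and 78.1% (72.8 to 82.7) in replicate 2, against 10.6% (9.73 to 11.4) and 18.3% (17.2 to 19.4) of the 4935 without it. The median width of the 270 was 36 bases in replicate 1 and 42 in replicate 2. The word and its place were picked from members extended in both libraries, and 145 of the 270 are such members. These shares are therefore the same description read the other way, not separate support. The peaks of members extended in both libraries had a median signal percentile of 62.3 and 62.5, against 52.4 and 55.8 for those extended in neither.

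**Figure D3:**
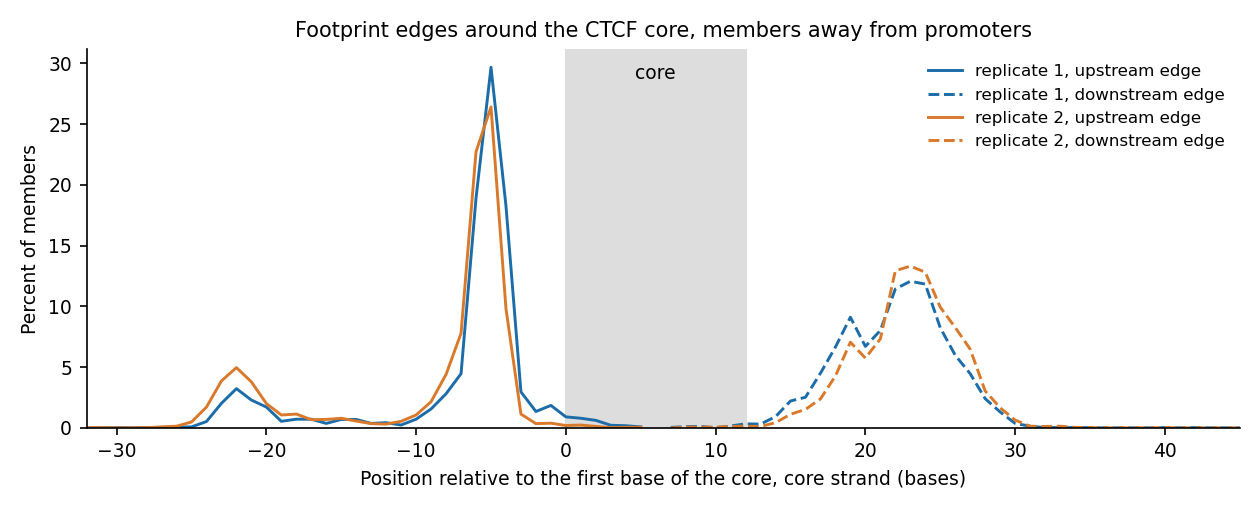
Position of the footprint edges relative to the first base of the CTCF core, along the core's strand in bases (horizontal), against the percent of the 5205 members away from promoters with 1 core of up to 1 mismatch (vertical); solid lines are upstream edges, dashed lines downstream edges, colours the libraries, and the grey band the core. Both libraries peak 5 bases before the core, with a smaller maximum 22 bases before it.

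The relative direction of neighbouring CTCF cores varied with distance. Neighbouring CTCF members along a chromosome, at and away from promoters, lay in the same peak in 67 cases, and the cores had the same strand in 51 of these, 76.1% (64.7 to 84.7). Up to 1 kb apart, with the pairs in the same peak counted again, 94 of 132 pairs had the same strand, 71.2% (63.0 to 78.2). At 1 to 10 kb, 164 of 470 pairs pointed away from each other, 34.9% (30.7 to 39.3), and 55 toward each other, 11.7% (9.10 to 14.9). At 10 to 100 kb the shares were alike, 28.6% (26.8 to 30.6) and 27.9% (26.1 to 29.9) of 2190 pairs. Over 100 kb, 28.8% (27.2 to 30.5) of 3001 pairs pointed toward each other and 749 pairs away. The direction is that of the core as printed above.

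At promoters the SP/KLF word led. This GC box (GGGCGGG with G or T before it and A or G after it) lay in 2288 of 11073 members, 20.7% (19.9 to 21.4). The share was 19.6% and 17.3% among all wide footprints at promoters in replicates 1 and 2, with a mean of 18.4% ± 1.65 (SD, n = 2). In 40-base windows it lay in 20.5% (19.7 to 21.2) of members and 6.55% (6.14 to 6.98) of narrower shared footprints. The 40-base windows at the midpoints of all peaks at promoters held it in 8.17% and 7.07%. Of members with the word, 174 (7.60%, 6.59 to 8.76) held at least 2 separate ones, with a median of 17 bases between first bases. By width in replicate 1 the share was 20.4% at 20 to 22 bases, 13.6% at 29 to 31 bases, 27.6% at 36 to 40 bases and 31.3% at 46 bases or more, where wider footprints also hold more letters to search.

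NRF1, a regulator of genes for mitochondria, was next. Its consensus lay in 935 members at promoters, 8.44% (7.94 to 8.98), with 102 for the backward pattern, and in 8.36% (7.86 to 8.89) of member windows against 1.58% (1.39 to 1.81) of narrower ones. It was most frequent in the narrowest members, 12.4% at 20 to 22 bases against 6.79% at 36 to 40. The CREB word (TGACGT, then A or C, then A), read by cAMP-responsive and ATF proteins, lay in 3.23% (2.92 to 3.58) of member windows against 0.336% (0.251 to 0.449), and its backward pattern in 7 members beside 357. The palindrome CTCGCGAG lay in 1.07% (0.891 to 1.27) against 0.172% (0.115 to 0.258). ZNF143, a zinc finger factor of promoters, lay in 1.91% (1.67 to 2.18) against 0.784% (0.648 to 0.949), and RFX, a winged-helix family, in 32 windows of 11073 members against 11 of 13386. For each of these consensus sequences the intervals did not overlap.

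In 40-base windows the words of NFY, ETS, USF, YY1 and E2F were not more frequent in members at promoters than in narrower footprints, and those of NFY, YY1 and E2F were less frequent. NFY, which reads CCAAT boxes (CCAAT with A or G before it, then C or G, then A or G), lay in 3.83% (3.49 to 4.20) of member windows against 4.60% (4.26 to 4.97). The ETS word CCGGAAGT lay in 2.13% (1.88 to 2.42) against 2.07% (1.84 to 2.32), and the E-box of USF (TCACGTG, then A or G) in 1.24% (1.05 to 1.46) against 1.13% (0.963 to 1.32). YY1 (AANATGGCG) lay in 0.686% (0.549 to 0.858) against 1.36% (1.18 to 1.57). E2F (GGCGGGAA) lay in 0.533% (0.413 to 0.687) against 0.844% (0.703 to 1.01). Read from the peaks the order was the other way. Here a member anywhere in the peak counted, whether or not it covered the word, so these shares do not place members on the words. Promoter peaks with the NFY word in their central 40 bases held a member in 59.5% (56.0 to 62.9) in replicate 1 and 54.7% (51.2 to 58.1) in replicate 2, against 43.1% and 37.5% of all promoter peaks. Those with the ETS word did so in 53.9% and 52.6%, and those with the YY1 word in 54.7% and 53.4%. By width, at 46 bases or more 10.1% of members at promoters held an NFY word, against 2.40% at 20 to 22 bases. These shares are not from fixed windows, and wider footprints hold more letters to search.

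The widest member at promoters, at chr2:165884719-165884790 just upstream of a start site of Zmynd8, which encodes a reader of histone marks, spanned 72 bases in both libraries and held 3 NFY words. Among the 6 widest were also Cnnm3, a magnesium transporter, at 68 and 62 bases, and Hmgn5, a nucleosome-binding protein, at 63 and 64 bases, each with an NFY word. Away from promoters the widest member, intergenic at chr4:67208571-67208638, was 68 and 75 bases wide, held no listed consensus and was made of the repeated unit ccaga. In the intron of Col18a1, a collagen gene, the member at chr10:77130730-77130793 was 64 and 58 bases wide and held the CTCF core with 1 mismatch.

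Other consensus sequences at promoters also had typical distances to the footprint edges. Around NRF1 the upstream edge most often lay 5 bases from the site in both libraries and the downstream edge 5 or 6 bases, for a median width of 23 and 27 bases. Around SP/KLF the most frequent upstream distances were 6 and 7 bases and the median widths 25 and 26. CREB members had median widths of 26 and 29 bases. Around ZNF143 the stretch was lopsided, with a median of 3 and 5 bases upstream and 16 and 18 bases downstream. For NFY the upstream distance was more variable, with 25th and 75th percentiles of 0 and 17 bases in replicate 1.

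Members at promoters lay just upstream of start sites. Their median position was 44 bases upstream of the nearest protein-coding start site, and 72.0% (71.2 to 72.9) lay between 150 bases before and 50 bases after it. Among narrower shared footprints the median was 27 bases upstream and the share 63.0% (62.2 to 63.8). Among the sets with a consensus, the median position relative to the start site, negative upstream, was -7.75 bases for YY1, -10.25 for ETS with 87.9% (83.0 to 91.6) in that interval, and -22.5 for NRF1. CREB lay at -27 bases, SP/KLF at -45.5 and NFY at -56.5, with 77.6% (75.9 to 79.3) of SP/KLF and 76.2% (71.7 to 80.2) of NFY members in the interval. CTCF members with the exact core were more scattered, with 38.3% (31.1 to 45.9) in it. Of the 35 members with 1 TATA word (TATA, then A or T, then AAG), the element that positions the basal transcription machinery, 31 had it on the strand of the gene. Of 162 members at promoters with 1 exact CTCF core, 102 had it on the strand of the gene, 63.0% (55.3 to 70.0).

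**Figure D4:**
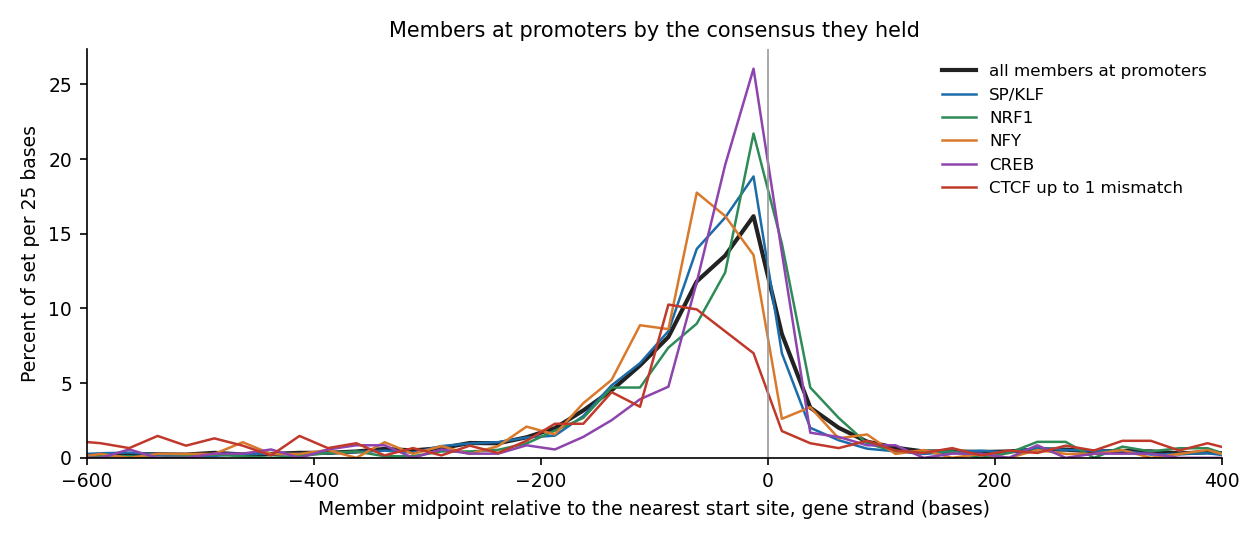
Midpoints of members at promoters relative to the nearest protein-coding start site, in bases along the gene (horizontal), against the percent of each set per 25 bases (vertical), for all members and for those with each consensus. All sets rise upstream of the start site, NFY farther upstream than NRF1 or CREB, and CTCF is spread more widely.

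Members lay in strong peaks at promoters and in peaks of middling strength elsewhere. The medians below are over footprints, so a peak with several counts for each of them. The deposited signal value is the authors' own, and it was used here only as a percentile within each list. The median percentile was 91.7 and 93.7 at promoters in replicates 1 and 2, against 83.7 and 88.3 for narrower shared footprints there. Away from promoters it was 59.3 and 63.4, against 53.6 and 67.1, so the order of wide and narrower footprints differed between the libraries. CTCF members away from promoters lay in weaker peaks, at 53.8 and 56.8, than the 3809 members without such a core, at 68.6 and 75.8. In the strongest 10% of peaks of replicate 1, 89.0% (88.0 to 89.9) of those at promoters and 87.7% (83.7 to 90.9) of those away held a member. In replicate 2 these shares were 82.9% (81.9 to 83.9) and 68.7% (65.3 to 71.8). In the weakest 10% of replicate 1 the shares were 0 of 1123 and 40 of 3166. The part of peak strength in the other results was not tested.

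**Figure D5:**
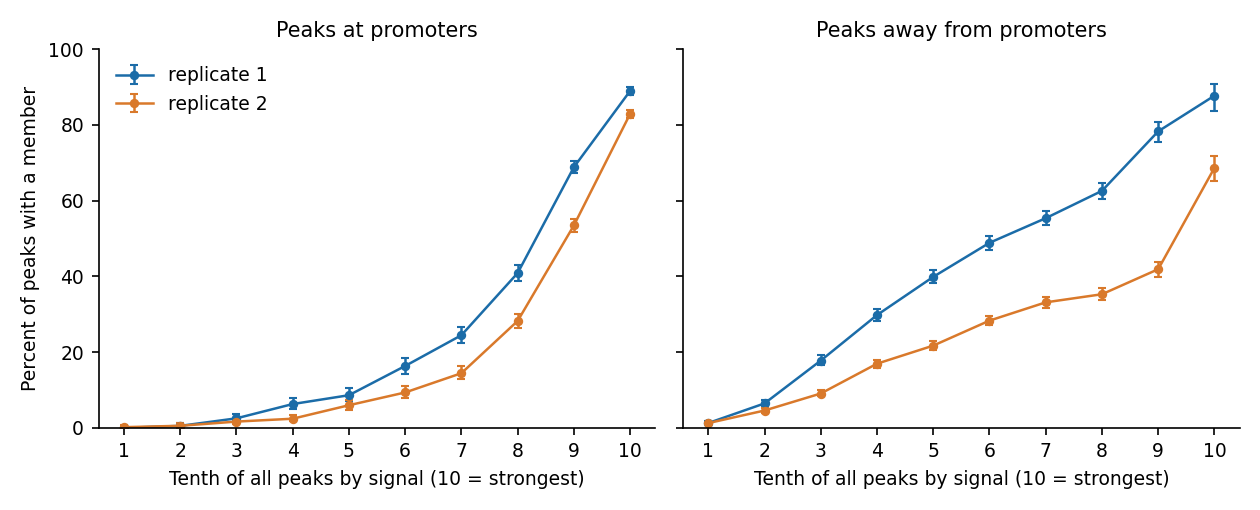
Percent of peaks with a member (vertical) in 10 equal bins of all peaks of a library by signal (horizontal, 10 is the strongest), for peaks at promoters (left) and away from them (right), with 95% Wilson intervals. The share rises from under 2% in the weakest bin to 89.0% and 82.9% at promoters in the strongest bin, in replicates 1 and 2, and to 87.7% and 68.7% away from promoters.

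The cut-rate track lists a false discovery rate (FDR) along the genome for the density of cuts, and it was read at each member's midpoint. At promoters the median of −log10 FDR was 67.0 in replicate 1 and 112 in replicate 2, against 38.5 and 63.2 at narrower shared footprints. Away from promoters it was 12.6 and 15.6, against 8.90 and 15.7, so the members were higher in replicate 1 and not in replicate 2. Members listed at an FDR of 0, 5 and 441 at promoters, were ranked above all others. CTCF members away from promoters had 11.3 and 12.5, and the others 15.6 and 24.7.

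Members away from promoters sat near the middle of their peaks. The median distance to the peak midpoint was 9.5 and 10 bases, against 37 and 38 for narrower shared footprints there. At promoters it was 31 and 32.5 bases, against 48.5 and 48. Most peaks with a member held 1, namely 78.4% of 15798 in replicate 1, and 144 held at least 4. By place, 5.84% of the members away from promoters were exonic, 40.8% intronic and 53.3% intergenic, and the median distance to a start site was 15.5 kb. Of CTCF members, 3.45% (2.99 to 3.97) lay within 1 kb of the start of a long noncoding RNA, against 9.16% (8.29 to 10.1) of the others. Sequence marked as repeat made up most of 10.7% (10.1 to 11.3) of members away from promoters and 5.03% (4.64 to 5.45) of those at promoters, close to the 10.9% and 4.89% of narrower footprints.

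The most members in 1 peak was 7. One such peak lay at chr11:53430881-53431280, upstream of Uqcrq, which encodes a subunit of respiratory complex III. Its members, 20 to 36 bases wide in replicate 1 and 22 to 26 in replicate 2, are shown because 3 of the 7 held the SP/KLF word, in capitals, and the others held no listed consensus. All are on the plus strand.
Uqcrq member 1, chr11:53430924-53430954: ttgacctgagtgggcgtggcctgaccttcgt
Uqcrq member 2, chr11:53430973-53431006: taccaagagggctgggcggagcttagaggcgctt
Uqcrq member 3, chr11:53431008-53431037: tagcgacacgtgggtggggcttatagaggt
Uqcrq member 4, chr11:53431081-53431111: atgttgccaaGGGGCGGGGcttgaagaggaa
Uqcrq member 5, chr11:53431118-53431163: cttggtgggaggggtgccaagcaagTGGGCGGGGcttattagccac
Uqcrq member 6, chr11:53431206-53431236: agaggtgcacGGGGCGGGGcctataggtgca
Uqcrq member 7, chr11:53431246-53431276: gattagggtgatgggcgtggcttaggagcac

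A peak at chr19:53142321-53142780, at Add3, an adducin of the membrane skeleton, held 7 members as well, 2 of them with the SP/KLF word. Another such peak, at chr8:70865501-70865960, lay 2272 bases or more upstream of Kcnn1, a potassium channel gene, and thus away from promoters. Its signal percentile was 99.6 and 99.7, and 3 of its 7 members held the NRF1 consensus.

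A large share of members held no exact match to any of the 30 consensus sequences: 56.6% (55.7 to 57.5) at promoters and 65.6% (64.6 to 66.6) away from them. Sites that differ from the listed letters were not counted. Away from promoters, 3100 held neither a listed consensus nor a CTCF core with 1 mismatch. Words of 6 letters were counted in them as a description. Among these, 17.9% (16.6 to 19.3) held AGGGGG, against 5.09% (4.72 to 5.48) of narrower windows, and 11.2% (10.1 to 12.4) held GCGCCC, against 2.45% (2.20 to 2.74). AGGGGG is part of some spellings of the CTCF core. In the 5866 such members at promoters, 1586 held CGCCCC, against 16.8% of narrower windows, and 14.6% (13.8 to 15.6) held CACGCC against 5.47% (5.10 to 5.87). On its other strand the latter reads GGCGTG, as in Uqcrq members 1 and 7. Members at promoters were richer in G and C, 68.8% of 40 bases on average, than narrower footprints there, 66.2%. Elsewhere the means were 59.0% and 54.9%.

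The strongest peaks with a member were not all unique sequence. Away from promoters the strongest lay at chrX:143482981-143483140, intergenic and upstream of Pak3, a kinase, with a member of 35 and 39 bases without a listed consensus. The sequence of the member near Gm11168, at chr9:3002181-3002225, occurred 17 times in the reference, and those of the 3 members near Gm21887 on chromosome X 2 to 4 times. Reads from such copies cannot be assigned to 1 place, so these values are uncertain. Only identical copies were counted. The Pak3 sequence occurred 1 time, but similar copies that differ by some bases would have been missed, so it is not shown to be unique. Among all members, 2 at promoters and 12 away from them shared their 40-base window with another member. The Y chromosome, absent in females, held 8 peaks of replicate 1 and 1 member.

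Members were common at promoters of housekeeping genes. A member lay at the promoter of 7532 of 21851 protein-coding genes (34.5%), and in the locus, the gene body with 10 kb on either side, of 54.0%. Both libraries had a peak at the promoter of 11598 genes, and 64.9% of these had a member there. Among such genes, 60 of 76 for cytosolic ribosomal proteins had one (78.9%), 54 of 71 for the respiratory chain and ATP synthase (76.1%), 30 of 37 for the proteasome (81.1%) and 10 of 12 for cohesin and CTCF. Among the rest of these lists, 32 of 57 histone genes (56.1%) and 168 of 312 zinc finger genes named Zfp (53.8%) had one. Clustered protocadherins and Hox genes, which are mostly silent in spleen, had 1 of 3 and 0 of 6.

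At cell type genes, members at promoters were fewer. In both libraries each of the 22 B cell genes had a peak at its promoter, and 8 of them (36.4%) had a member there, against 64.9% over all such genes. In their loci 18 of 22 had a member (81.8%, 61.5 to 92.7), against 54.0% over all 21851 protein-coding genes. That base differs from the one before, as it includes genes without a promoter peak. Gene length was not taken into account. The locus counts were 11 of 23 T cell genes, 8 of 16 erythroid, 8 of 20 macrophage and monocyte and 6 of 11 endothelial genes, and 71 of 79 ribosomal protein, 64 of 71 respiratory chain and 35 of 39 proteasome genes. The counts at promoters were 3 of 11 for T cell genes, 4 of 12 for erythroid genes, 1 of 9 for macrophage and monocyte genes and 1 of 3 for endothelial genes. Of the 12 hepatocyte genes, a list for a cell type of the liver, none had a peak at the promoter in both libraries. The lists are small, peak strength differed between genes, and its part in these counts was not tested.

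The 8 B cell genes with a member at the promoter were Cd22, Cd74, Cd79a, Cd79b, Cr2, Cxcr5, Ebf1 and Tnfrsf13c. None of these members held a listed consensus. At Cd79a, which signals for the B cell receptor, the member was 32 bases wide in both libraries and centred 51.5 bases upstream of the start site, in a peak at percentile 84.6 and 95.2. At Cr2, a complement receptor, it was 28 and 30 bases wide and 46.5 bases upstream, and at Ebf1, the B cell transcription factor, 25 and 20 bases wide and 45 bases upstream. Their sequences are shown as examples of B cell promoters in which none of the 30 listed patterns matched exactly, so they carry no capitals. Sites of the same factors that differ from the listed pattern would have been missed. They were chosen after their values were seen. All are on the plus strand.
Cd79a, chr7:24897309-24897350: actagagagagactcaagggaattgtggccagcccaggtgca
Cr2, chr1:195176744-195176781: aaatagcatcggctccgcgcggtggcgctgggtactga
Ebf1, chr11:44617255-44617289: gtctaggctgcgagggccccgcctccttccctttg

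T cell genes with a member at the promoter were Ccr7, a homing receptor, Cd2, an adhesion molecule, with 2 members, and Ets1, a transcription factor. The Ets1 member, 33 and 36 bases wide and 63 bases upstream, held the SP/KLF word in a peak at percentile 98.2 and 98.1. Erythroid genes with one were Epor, the erythropoietin receptor, Fech, the last enzyme of haem synthesis, Nfe2, a red cell and platelet factor, and Tfrc with 3 members. The Nfe2 member, 23 and 35 bases wide and 130 bases upstream, held a GATA word, 1 of 7 members at promoters that did. Its peak was weak in replicate 1, at percentile 45.8, and stood at 72.9 in replicate 2. Among macrophage genes only Irf8, a factor of monocytes and B cells, had a member, 25 and 22 bases wide and 29 bases upstream, which held both the SP/KLF word and a TATA word.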

How the data were processed

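The 2 DNase-seq libraries of spleen were analysed. Per the readme deposited with each library, the authors derived peaks and the cut-rate track from that library's alignments to mm10, and footprints from the alignments and that track, without pooling. Names of the aligner and callers were not given in the sources used here. Each peak in the deposited lists has a signal value, used only for ranks within a list. The footprints carry a constant FDR (q-value) of 0.01, per the deposited lists, and the deposited cut-rate track an FDR (q-value) listed only under 0.05. A larger number of reads gives more peaks and footprints, and depth is unknown. The shorter of the 2 deposited peak lists of each library was used.

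Sequence came from GRCm38.p6 and genes from the GENCODE M21 basic annotation; coordinates count from 1. Footprints within 1 kb of a protein-coding start site were placed at promoters. In all, 30 consensus sequences were searched on both strands in footprints plus 5 bases, or in 40-base windows, and consensus sequences may overlap each other. AP-1 was TGA, then C or G, then TCA. A repeat was a footprint with most bases soft-masked in the reference. Members were named by rule: in each class the 6 widest, the 6 in the strongest peaks, for each consensus held by at least 20 members the 1 in the strongest peak and the 3 with most consensus sequences; list genes with a member at the promoter in alphabetical order, up to 8 for blood cell lists and 3 for others; and the 3 peaks with most members. Members shown for CTCF, and those with an extended footprint, were chosen after their values were seen. The members and the 14 gene lists were chosen with earlier results of these data known. With 1 group of 2 libraries no test across animals was possible, so shares have Wilson intervals from SciPy 1.17.1, and values per library are given. The search and overlap code was tested on simulated data. Python 3.11.15 and NumPy 2.4.6 were used. Width, peak list, overlap, promoter size, flank and mismatch were varied, and each library was left out in turn. One member that this rule names is not reported here.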

Additional observations from a re-analysis of the deposited data

How the results depend on the processing

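Of 68 recomputed values, 50 stayed within the spread between the libraries or, for the number of members, within 1.5 times. Without replicate 1 or replicate 2, all wide footprints of the other library were taken. The number of members was then 23638 to 37382, the share at promoters 49.5% to 56.3%, the exact CTCF core 16.5% to 23.3% away from promoters and 1.11% to 1.31% at them, and no listed consensus 66.9% to 70.5% away and 59.1% to 61.5% at promoters. A minimum width of 25 bases left 11397 members, 47.8% of them at promoters, and 2.42% of these with the CTCF core, whereas a minimum of 18 bases gave 1.28% with the core at promoters. A promoter of 500 bases or 2 kb moved that last share to 1.04% and 2.18%. Allowing 1 mismatch moved the core to 58.0% away from promoters and 5.55% at them. No listed consensus at promoters was 59.8% in the footprint alone and 53.9% with 10 bases on each side. The alternatives with the longer peak list, a footprint touching a peak by 1 base, and overlaps of 1 base or 80% moved none of the 6 results. No paired analysis was possible because there is 1 group. Depth limits which weaker sites reached a footprint call, and the files give no read counts.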
